A study of Mus musculus with 11 samples.

Results

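The CXC chemokines are small proteins, most of them secreted, named for a pair of cysteines separated by 1 residue, that direct the migration of leukocytes. The genes described were Cxcl1, Cxcl2, Cxcl3, Ppbp, Pf4, Cxcl9, Cxcl10, Cxcl12, Cxcl14 and Cxcl16, chosen by name and family, though with earlier results of these data known. All 10 were found among the 22068 gene symbols of the data, and 8 of the 10 passed the filter, a mean over the 11 libraries of 1 RPKM or more (RPKM counts reads per kilobase of transcript and per library total, so that levels can be compared between genes). Cxcl12 and Cxcl14 did not.

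RNA was sequenced from cells bearing CD11b, an integrin found on most myeloid cells, taken with magnetic beads from tumours implanted under the skin of mice. The STAT3KO mice (4 libraries) carried MxCre and a floxed Stat3 gene. MxCre is driven by the interferon-responsive Mx1 promoter, so that deletion is not limited to myeloid cells. The TLR9KO mice (4 libraries) lacked both copies of Tlr9, and the WT mice (3 libraries) were unmodified at these genes. All mice had a C57BL/6 background, and every tumour had received 15 Gy of local radiation and was taken 4 days later. No unirradiated tumour was analysed here, and the tumour line and the ages of the mice are not given in the labels. Nothing in the labels says that replicates were separate animals, and the p-values thus reflect the spread among libraries only, which may be technical.

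The libraries went with their labels. Stat3 was 15.7 to 19.7 RPKM in STAT3KO, 58.5 to 68.8 in TLR9KO and 70.7 to 76.1 in WT, and Tlr9 was 3.53 to 7.70 RPKM in TLR9KO, against 20.5 to 41.6 RPKM in WT. Itgam, which encodes CD11b, was 191 to 228 RPKM in STAT3KO, 177 to 328 in TLR9KO and 294 to 313 in WT. Estimated depth was 30.7 to 53.8 M reads. STAT3KO replicate 2 stood apart in neutrophil granule genes: its 11 neutrophil markers summed to 677 RPKM, against 79.97 to 106 RPKM in the other STAT3KO libraries, with Ngp at 94.96 RPKM against 0.08 to 0.30 RPKM. Erythroid markers summed to 2.72 to 49.6 RPKM in STAT3KO, 0.56 to 3.31 in TLR9KO and 42.6 to 169 in WT, and fibroblast markers to 15.9 to 31.2 RPKM in STAT3KO, 11.8 to 43.6 in TLR9KO and 2.54 to 4.88 in WT. Their part in the differences of either knockout from WT was not tested. In all libraries pigment cell markers were present, with sums of 423 to 1368 RPKM, and 0 of 5 passed the test in any comparison.

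The family divides by function. Cxcl1, Cxcl2, Cxcl3 and Ppbp carry the Glu-Leu-Arg (ELR) motif and draw neutrophils through the receptor Cxcr2. In macrophages Cxcl1, Cxcl2 and Cxcl3 are classic targets of NF-kB after Toll-like receptor or interleukin-1 signals. Cxcl9 and Cxcl10 lack the motif, are induced by interferons and draw activated T cells and NK cells through Cxcr3, and tumour-infiltrating myeloid cells are a known source of both. Pf4, or platelet factor 4, was named for the platelet granules that hold it.

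Both classes were detected in every library. Either Cxcl2 or Pf4 was the highest of the 10 genes in 10 of the 11 libraries. The exception was TLR9KO replicate 3, in which Cxcl10, at 198 RPKM, lay just above Cxcl2, at 197 RPKM. Cxcl2 ranked 133 to 210 among all 22068 symbols in STAT3KO, 79 to 358 in TLR9KO and 122 to 198 in WT. Pf4 ranked 45 to 113 in STAT3KO, 62 to 483 in TLR9KO and 192 to 604 in WT. Cxcl12 and Cxcl14 stood at the bottom of the 10 genes. Other CXC ligands, not among the 10, were also low. Over the 11 libraries Cxcl5, which carries the ELR motif described above, was at most 0.55 RPKM. Cxcl13, Cxcl15 and Cxcl17 were at most 0.05, 0.02 and 0.03 RPKM.

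**Figure D1:**
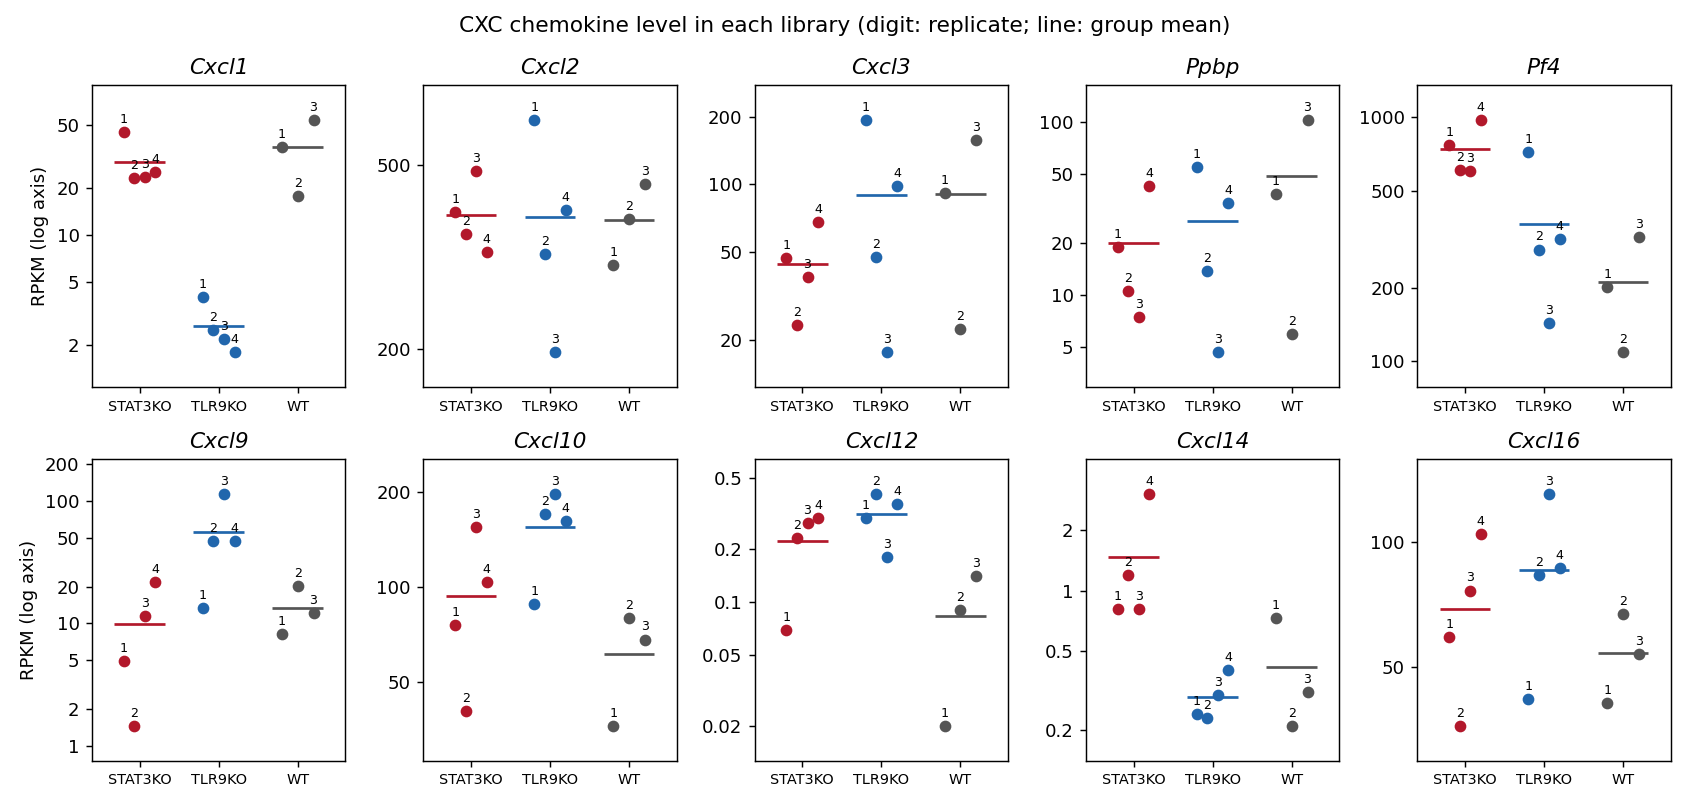
RPKM of each of the 10 genes (log axis, own scale per panel) in each library of STAT3KO, TLR9KO and WT. Points are libraries with their replicate number and lines are group means. Cxcl1 lies at 1.80 to 4.05 RPKM in TLR9KO and at 17.8 RPKM or above in all other libraries, while the groups overlap in Cxcl2.

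Few of the family passed the test, limma on log2(RPKM + 1) with adjusted p under 0.05 over all genes. In STAT3KO minus WT, 1 of the 8 tested rose (Pf4) and 0 fell, against 29.2% and 14.8% of all 10557 genes tested. Pf4 was also the only one of the 8 whose groups did not overlap, against 47.7% of all genes. In TLR9KO minus WT, 1 of 8 rose (Cxcl10) and 1 fell (Cxcl1), against 20.0% and 10.6% of all genes, and these 2 did not overlap between groups, against 36.1%. In STAT3KO minus TLR9KO, 1 of 8 rose (Cxcl1) and 1 fell (Cxcl9), against 13.4% and 9.46%, and Cxcl1 alone did not overlap, against 27.0%. The counts of calls in the family were near or below the background.

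**Figure D2:**
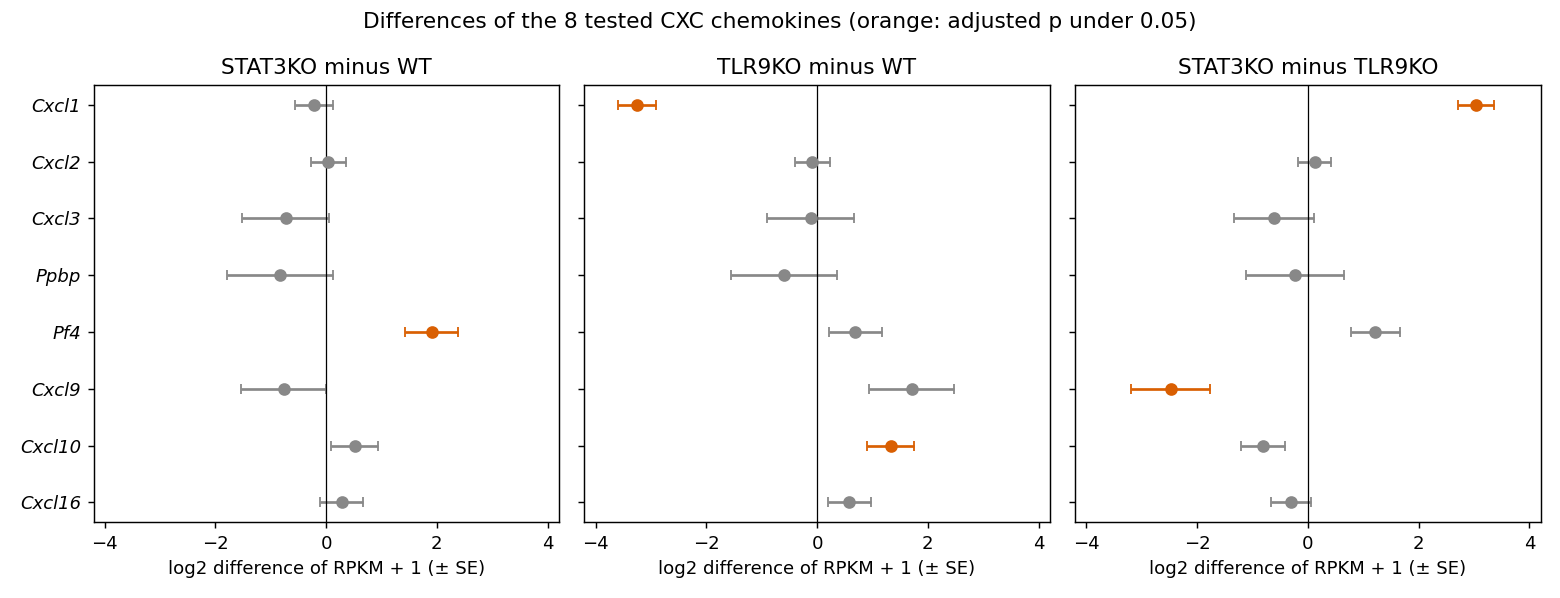
Log2 differences of RPKM + 1 with their standard errors for the 8 tested genes in the 3 comparisons, with orange for a limma adjusted p under 0.05. Cxcl1 stands at -3.26 in TLR9KO minus WT and at 3.04 in STAT3KO minus TLR9KO, and Pf4 at 1.91 in STAT3KO minus WT.

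Across genes, which are not independent replicates, the log2 difference followed GC content and transcript length. Spearman's rho with GC content was -0.23 in STAT3KO minus WT, -0.55 in TLR9KO minus WT and 0.32 in STAT3KO minus TLR9KO. With length it was -0.34, -0.19 and -0.27 in the same order. GC content and length were known for 98.8% of the 10557 genes. The split of calls over all genes depended on scaling. With median-ratio scaling 2167 genes rose and 2286 fell in STAT3KO minus WT, against 3083 and 1565 as deposited. In TLR9KO minus WT it was 1680 and 1543, against 2107 and 1122, and in STAT3KO minus TLR9KO 919 and 1189, against 1410 and 999. The median log2 difference of all genes in STAT3KO minus WT was -0.02 with that scaling and 0.09 as deposited, and none of the calls of Cxcl1, Pf4, Cxcl9 and Cxcl10 was lost with it.

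Among the ELR ligands Cxcl1 was low in TLR9KO, and Cxcl2, Cxcl3 and Ppbp did not pass the test in any comparison. Cxcl1 and Cxcl2 both attract neutrophils and are both made by activated macrophages. The promoters of Cxcl1, Cxcl2 and Cxcl3 are shown because these genes lie in 1 cluster on chromosome 5 and only Cxcl1 of the 3 passed the test. The order in a RefSeq gene table of assembly GRCm38.p6, which is not the build of the files, is Ppbp, Pf4, Cxcl3, Cxcl15, Cxcl1 and Cxcl2, so that Cxcl1 and Cxcl2 are next to each other and Cxcl15 stands between them and Cxcl3. The RefSeq promoter table (GRCm38.p6) held 9 of the 10 genes, Cxcl16 being the exception. The 100 bases just before the start site are printed 5′ to 3′, and capitals mark matches to the NF-kB consensus on either strand. The windows, all on the plus strand, are chr5:90891145-90891244 for Cxcl1, chr5:90903799-90903898 for Cxcl2 and chr5:90786001-90786100 for Cxcl3.
Cxcl1: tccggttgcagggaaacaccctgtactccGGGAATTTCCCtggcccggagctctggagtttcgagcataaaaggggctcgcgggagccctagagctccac
Cxcl2: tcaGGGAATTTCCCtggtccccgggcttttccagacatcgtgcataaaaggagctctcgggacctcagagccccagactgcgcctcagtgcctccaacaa
Cxcl3: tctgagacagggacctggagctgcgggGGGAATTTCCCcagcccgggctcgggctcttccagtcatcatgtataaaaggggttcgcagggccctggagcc
The same 11 letters, which hold overlapping matches on both strands, stand in all 3 windows. The plus-strand match began at -71 in Cxcl1, at -97 in Cxcl2 and at -73 in Cxcl3, counted from the start site. A match to this consensus was found in 8.46% of the 32851 promoter windows of 300 bases (250 before and 50 after the start) in the table. The match is a description of letters and does not show binding.

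Cxcl1 stood at 44.99, 23.15, 23.6 and 25.1 RPKM in STAT3KO, 4.05, 2.49, 2.19 and 1.80 RPKM in TLR9KO and 36.5, 17.8 and 54.1 RPKM in WT. All 4 TLR9KO libraries lay below all 7 others, with no overlap. The group means were 29.2 ± 10.6 RPKM in STAT3KO (SD, n = 4), 2.63 ± 0.99 RPKM in TLR9KO (n = 4) and 36.1 ± 18.2 RPKM in WT (n = 3), so that the TLR9KO mean was 7.29% of the WT mean. These TLR9KO values stand for about 66 to 149 reads in a transcript of 953 bases, by the estimated depths, against 594 to 1941 reads in WT.

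On the scale of log2(RPKM + 1), Cxcl1 fell by 3.26 ± 0.35 (SE) in TLR9KO relative to WT (limma adjusted p = 0.000231). In STAT3KO it was higher than in TLR9KO by 3.04 ± 0.32 (limma adjusted p = 0.000191). STAT3KO minus WT was -0.22 ± 0.35, which did not pass (limma adjusted p = 0.638), with a 95% interval of -0.99 to 0.54. Both calls were kept in all 20 alternatives, with differences of -3.81 to -2.90 for TLR9KO minus WT and 2.81 to 3.43 for STAT3KO minus TLR9KO. Some alternatives left out a library of the group not compared, which can move the shared spread but not the difference.

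Cxcl2 encodes a neutrophil attractant of the same receptor and was 396, 355, 486 and 325 RPKM in STAT3KO, 628, 321, 197 and 401 RPKM in TLR9KO and 304, 383 and 456 RPKM in WT. All 3 groups overlapped, and the TLR9KO group held both the highest and the lowest library. The means were 390.3 ± 70.2 RPKM in STAT3KO (n = 4), 387 ± 181 RPKM in TLR9KO (n = 4) and 381 ± 75.8 RPKM in WT (n = 3). The difference of TLR9KO minus WT was -0.08 ± 0.32 (limma adjusted p = 0.867) with a 95% interval of -0.78 to 0.61, and that of STAT3KO minus WT was 0.04 ± 0.32 (adjusted p = 0.937) with an interval of -0.66 to 0.73. The interval for Cxcl1 in TLR9KO minus WT, -4.02 to -2.49, did not reach that for Cxcl2.

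The level of Cxcl1 as a share of that of Cxcl2 was 4.85% to 11.4% in STAT3KO, 0.45% to 1.11% in TLR9KO and 4.64% to 11.98% in WT. Set against Cxcl2 within each library, Cxcl1 was therefore lower in each TLR9KO library than in any other library.

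Cxcl3, another Cxcr2 ligand, was 46.9, 23.4, 38.4 and 67.7 RPKM in STAT3KO, 195, 47.2, 17.7 and 98.0 RPKM in TLR9KO and 91.4, 22.4 and 158 RPKM in WT. The groups overlapped, and the TLR9KO group held the highest and the lowest value of all. The difference of TLR9KO minus WT was -0.12 ± 0.78 (limma adjusted p = 0.927) and that of STAT3KO minus WT -0.73 ± 0.78 (adjusted p = 0.480). With such a spread, the 95% interval of TLR9KO minus WT ran from -1.84 to 1.60.

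Ppbp encodes the precursor of the neutrophil attractant NAP-2, which proteases release, and is best known from platelets. It was 18.9, 10.5, 7.45 and 42.4 RPKM in STAT3KO, 54.7, 13.7, 4.65 and 33.8 RPKM in TLR9KO and 38.0, 5.96 and 102 RPKM in WT. Again the groups overlapped: the WT libraries alone spanned 17.2-fold and the TLR9KO libraries 11.8-fold. No comparison passed, with differences of -0.83 ± 0.96 for STAT3KO minus WT (limma adjusted p = 0.510), -0.60 ± 0.96 for TLR9KO minus WT (0.667) and -0.23 ± 0.89 for STAT3KO minus TLR9KO (0.872).

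Cxcl3, Ppbp and Pf4 had their libraries in the same order within TLR9KO (replicates 1, 4, 2 and 3 from high to low) and within WT (3, 1 and 2). Cxcl2 had that order too in TLR9KO, and Cxcl1 in WT. In STAT3KO, replicate 4 was the highest for Cxcl3, Ppbp and Pf4. TLR9KO replicate 1, the highest TLR9KO library for all 5 genes, also had the highest TLR9KO sums of fibroblast markers (43.6 RPKM, against 11.8 to 16.6 RPKM in the other 3) and endothelial markers (16.8 RPKM, against 7.16 to 11.3 RPKM). That endothelial sum was mostly Pecam1, at 8.51 RPKM, and Kdr, at 5.83 RPKM. Among the TLR9KO libraries Cdh5, Egfl7 and Emcn were highest in replicate 2. The neutrophil marker sum of TLR9KO replicate 1, 248 RPKM against 67.9 to 102 RPKM, was mostly Mmp8, at 207 RPKM, a gene also listed below among the enzymes. Without Mmp8, left out after the values were seen, the sum was 40.8 RPKM in that library and 31.8, 54.4 and 67.9 RPKM in TLR9KO replicates 2, 3 and 4, so that it was not the highest. WT replicate 3, the highest WT library for all 5 genes, had the highest WT neutrophil sum, without Mmp8 63.9 RPKM against 48.2 and 30.4 RPKM, and the lowest WT fibroblast sum, 2.54 RPKM. STAT3KO replicate 2, with the highest neutrophil sum of all libraries, was the lowest STAT3KO library for Cxcl1 and Cxcl3. The part of these other cells in the chemokine levels was not tested, and in bulk RNA fewer cells of a type and less RNA per cell cannot be told apart.

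**Figure D3:**
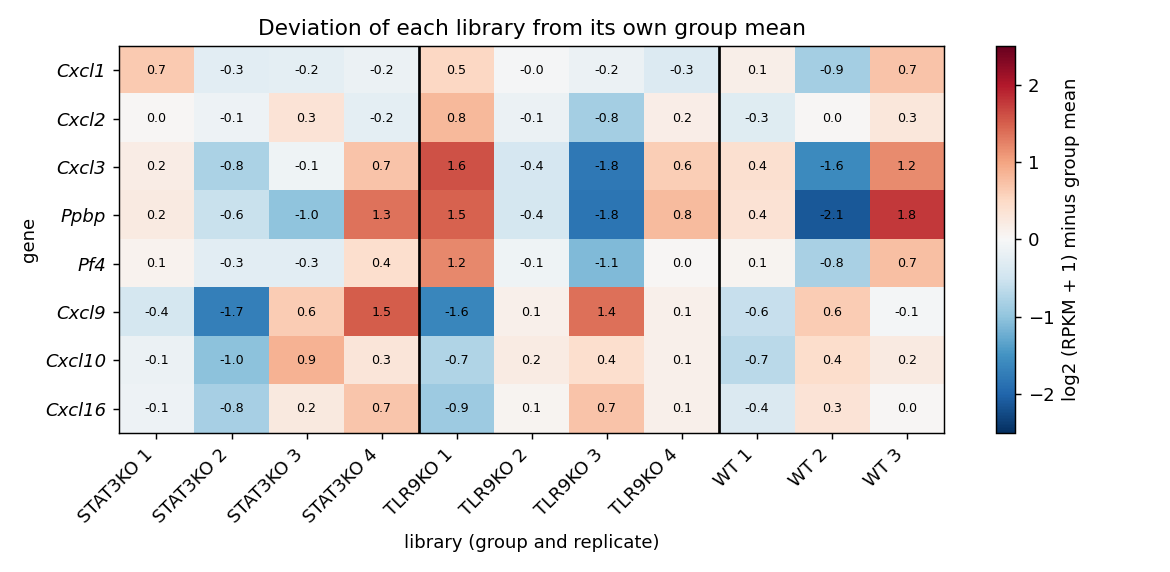
Deviation of each gene in each library from its own group's mean log2(RPKM + 1), for the 8 tested genes and 11 libraries. Cxcl3, Ppbp and Pf4 are high together in TLR9KO replicate 1 and WT replicate 3, while Cxcl9, Cxcl10 and Cxcl16 are low in TLR9KO replicate 1 and WT replicate 1.

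Pf4 rose in STAT3KO over WT. It encodes a heparin-binding chemokine that does not carry the ELR motif and is stored in platelet granules. Pf4 was 771, 606, 600.0 and 974 RPKM in STAT3KO, 716, 287, 144 and 315 RPKM in TLR9KO and 202, 109 and 322 RPKM in WT. All 4 STAT3KO libraries lay above all 3 WT libraries, while the TLR9KO group overlapped WT and, through its replicate 1 alone, STAT3KO. The means were 738 ± 176 RPKM in STAT3KO (n = 4), 365 ± 246 RPKM in TLR9KO (n = 4) and 211 ± 107 RPKM in WT (n = 3).

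Pf4 rose 3.50-fold by these means in STAT3KO over WT, a log2 difference of 1.91 ± 0.48 (limma adjusted p = 0.00797). TLR9KO minus WT was 0.69 ± 0.48 (limma adjusted p = 0.295) and STAT3KO minus TLR9KO 1.22 ± 0.44 (0.0696). With a correction for GC content and length the STAT3KO minus WT difference was 1.23 and did not pass (adjusted p = 0.0951). The STAT3KO minus TLR9KO difference passed when TLR9KO replicate 1 was left out (1.62, adjusted p = 0.0131).

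Pf4 made up 42.9% to 58.4% of the summed RPKM of the 10 genes in STAT3KO, 17.7% to 41.1% in TLR9KO and 15.4% to 26.6% in WT. Cxcl2 made up 19.5% to 34.7% in STAT3KO, 24.3% to 36.0% in TLR9KO and 37.1% to 54.3% in WT. Among the 10 genes, the leading transcript was thus Pf4 in each STAT3KO library and Cxcl2 in each WT library.

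Pf4 and Ppbp are best known from platelets. The 10 platelet and megakaryocyte markers, among them the glycoprotein genes Itga2b, Gp9 and Gp1ba, summed to 0.65 to 1.19 RPKM in STAT3KO, 0.88 to 1.88 in TLR9KO and 0.71 to 1.05 in WT, and none of the 10 reached the filter. One of them, Treml1, chosen after its values were seen, was 0.47, 0.24, 0.30 and 0.56 RPKM in STAT3KO, 0.15, 0.02, 0.02 and 0.06 RPKM in TLR9KO and 0.03, 0.02 and 0.17 RPKM in WT. All 4 STAT3KO libraries lay above all 7 others in it. The 9 macrophage markers summed to 5866 to 7579 RPKM in STAT3KO, 4205 to 7098 in TLR9KO and 4185 to 4996 in WT. In STAT3KO minus WT, 6 of these 9 rose and 1 fell, against 29.2% and 14.8% of all genes tested. The one that fell was the mannose receptor gene Mrc1 (-0.85 ± 0.21), which had the smallest p of the list, and the rises included Emr1 (0.92 ± 0.26), C1qc (0.86 ± 0.26) and Cd68 (0.44 ± 0.13). The part of platelet or macrophage RNA in the rise of Pf4 was not tested.

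The interferon-induced pair had its highest mean levels in TLR9KO, where Cxcl10 passed the test against WT and Cxcl9 was higher than in STAT3KO. The promoter of Cxcl10 is shown because it holds matches of both kinds: the 250 bases before the start site (chr5:92348890-92349139, minus strand, GRCm38.p6, RefSeq) follow, with capitals for matches to the NF-kB consensus or to the interferon-stimulated response element, GAAANNGAAA, on either strand.
Cxcl10: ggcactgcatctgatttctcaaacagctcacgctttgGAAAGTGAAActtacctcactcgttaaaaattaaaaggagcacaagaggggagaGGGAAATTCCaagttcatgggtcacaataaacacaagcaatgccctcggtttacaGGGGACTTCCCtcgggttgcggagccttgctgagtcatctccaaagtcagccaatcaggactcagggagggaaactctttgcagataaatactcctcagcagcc
The response element match runs from -213 to -204, and the NF-kB matches from -159 to -150 and, overlapping, from -104 to -94. The response element was found in 3.44% of all 32851 windows. Of the 9 windows of the family, 4 held the NF-kB consensus (Cxcl1, Cxcl2, Cxcl3 and Cxcl10), 2 the response element (Cxcl10 and Cxcl14) and 1 the STAT palindrome TTCNNNGAA (Cxcl14), which 8.30% of all windows held. The Cxcl14 window (chr13:56296552-56296801, minus strand) lay inside the span of the gene in the RefSeq gene table (56288643-56296811). Its matches thus lie within that span and not upstream of it. The windows of Ppbp, Pf4, Cxcl9 and Cxcl12 held none of these letters.

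Cxcl10, induced by both type I and type II interferon, was 75.9, 40.5, 155 and 104 RPKM in STAT3KO, 88.2, 171, 198 and 162 RPKM in TLR9KO and 36.4, 80.1 and 68.4 RPKM in WT. All 4 TLR9KO libraries lay above all 3 WT libraries, with replicate 1 close to them, and STAT3KO overlapped both. The means were 93.8 ± 48.3 RPKM in STAT3KO (n = 4), 155 ± 47.0 RPKM in TLR9KO (n = 4) and 61.6 ± 22.6 RPKM in WT (n = 3).

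Cxcl10 rose in TLR9KO over WT by 1.33 ± 0.43 (limma adjusted p = 0.0366), which is 2.51-fold by the means. STAT3KO minus WT was 0.52 ± 0.43 (adjusted p = 0.359) and STAT3KO minus TLR9KO -0.81 ± 0.40 (0.160). The call of TLR9KO over WT was lost without TLR9KO replicate 2 (adjusted p = 0.0802), 3 (0.0848) or 4 (0.0749), without WT replicate 1 (0.99, adjusted p = 0.157) or 3 (0.0677), with no filter (0.0744) and with the GC and length correction (1.08, 0.115). Its adjusted p ranged from 0.00336 to 0.157 over the 20 alternatives.

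Cxcl9, which depends chiefly on interferon-gamma, was 4.89, 1.45, 11.4 and 21.9 RPKM in STAT3KO, 13.35, 47.4, 115 and 47.5 RPKM in TLR9KO and 8.13, 20.15 and 12.1 RPKM in WT. TLR9KO replicates 2, 3 and 4 stood above all other libraries, and replicate 1 fell within the range of both other groups. The means were 9.90 ± 8.98 RPKM in STAT3KO (n = 4), 55.9 ± 42.7 RPKM in TLR9KO (n = 4) and 13.5 ± 6.13 RPKM in WT (n = 3).

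STAT3KO was lower than TLR9KO in Cxcl9, with a log2 difference of -2.48 ± 0.71 (limma adjusted p = 0.0293). TLR9KO minus WT was 1.71 ± 0.77 and did not pass (adjusted p = 0.114), but did when TLR9KO replicate 1 was left out (2.25, adjusted p = 0.0334) or libraries were weighted by their fit (2.06, 0.0263). STAT3KO minus WT was -0.77 ± 0.77 (adjusted p = 0.448). The STAT3KO minus TLR9KO call was lost with no filter (0.0582) and without STAT3KO replicate 1 (0.0724) or 2 (-1.91, 0.0705) or TLR9KO replicate 2 (0.0669), 3 (0.0648) or 4 (0.0694), in an overall range of 0.0103 to 0.0724.

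Cxcl9 and Cxcl16 had the same order of libraries in each group, and Cxcl10 shared it in WT. T and NK cell markers, 9 in number, summed to 4.08 to 19.9 RPKM in STAT3KO, 3.98 to 17.7 in TLR9KO and 7.57 to 27.7 in WT. Both ends of the TLR9KO range lay below those of WT. TLR9KO replicate 3, the highest library for Cxcl9 and Cxcl10, had the highest TLR9KO sum, 17.7 RPKM against 3.98 to 7.47 RPKM, and its part was not tested.

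The balance between the classes was read from summed levels in each library, as a description. The ELR sum (Cxcl1, Cxcl2, Cxcl3 and Ppbp) was 507, 412, 555 and 459.7 RPKM in STAT3KO, 882, 385, 221 and 534 RPKM in TLR9KO and 470.4, 429 and 771 RPKM in WT. The sum of Cxcl9 and Cxcl10 was 80.8, 42.0, 166 and 126 RPKM in STAT3KO, 102, 219, 313 and 210 RPKM in TLR9KO and 44.5, 100.2 and 80.4 RPKM in WT. The ratio of the ELR sum to the interferon sum was 6.27, 9.81, 3.34 and 3.66 in STAT3KO, 8.68, 1.76, 0.71 and 2.55 in TLR9KO and 10.6, 4.28 and 9.58 in WT.

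TLR9KO replicates 2, 3 and 4 had the lowest ratios of all libraries, and replicate 3 was the only library in which the interferon-induced pair exceeded the ELR ligands. TLR9KO replicate 1 lay among the other groups. STAT3KO and WT overlapped.

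**Figure D4:**
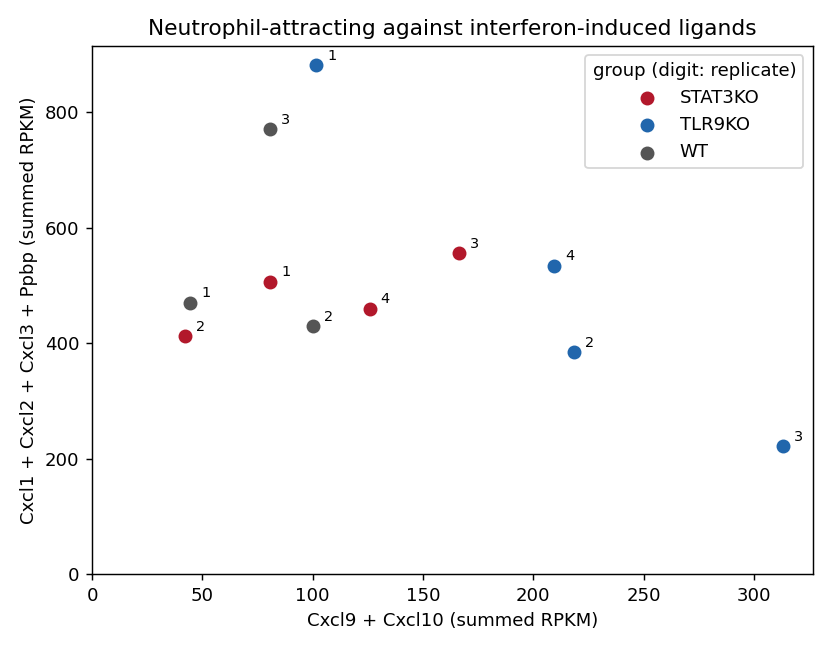
Summed RPKM of the ELR ligands (Cxcl1, Cxcl2, Cxcl3 and Ppbp) against that of Cxcl9 and Cxcl10. Both axes are linear, with 1 point for each library of STAT3KO, TLR9KO and WT. TLR9KO replicates 2, 3 and 4 lie towards high interferon-induced sums, from 210 to 313 RPKM, and TLR9KO replicate 1 has the highest ELR sum, 882 RPKM.

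Cxcl16 is unusual in the family: it is made as a membrane protein that takes up oxidised lipoprotein, and is shed by the protease Adam10 as a ligand of Cxcr6. It was 59.2, 36.0, 76.5 and 105 RPKM in STAT3KO, 41.9, 83.3, 131 and 86.7 RPKM in TLR9KO and 40.8, 67.1 and 53.8 RPKM in WT, with all groups overlapping. The differences were 0.28 ± 0.39 for STAT3KO minus WT (limma adjusted p = 0.590), 0.58 ± 0.39 for TLR9KO minus WT (0.282) and -0.30 ± 0.36 for STAT3KO minus TLR9KO (0.580).

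Cxcl12, the Cxcr4 ligand that stromal cells make to hold leukocytes in bone marrow, was near 0 throughout. It was 0.07, 0.23, 0.28 and 0.30 RPKM in STAT3KO, 0.30, 0.41, 0.18 and 0.36 RPKM in TLR9KO and 0.02, 0.09 and 0.14 RPKM in WT, or roughly 3 to 81 reads. All 4 TLR9KO libraries lay above the WT libraries (log2 difference 0.28, exact two-sided permutation p = 0.0571, adjusted over 6 tests 0.114). A comparison of 4 with 3 libraries cannot give a lower p than 0.0571. Fibroblasts are known to make Cxcl12, and the sums of their 8 markers, given above, were likewise higher in every TLR9KO library than in any WT library. These sums were also higher in every STAT3KO library than in any WT library, while Cxcl12 overlapped between STAT3KO and WT. TLR9KO replicate 1, with the highest fibroblast sum (43.6 RPKM), was not the highest for Cxcl12. The part of fibroblasts was not tested.

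Cxcl14, a chemokine whose receptor is unsettled, was 0.81, 1.19, 0.81 and 3.06 RPKM in STAT3KO, 0.24, 0.23, 0.30 and 0.40 RPKM in TLR9KO and 0.73, 0.21 and 0.31 RPKM in WT. All 4 STAT3KO libraries lay above all 7 others. The log2 difference of STAT3KO minus WT was 0.73 (exact two-sided permutation p = 0.0571, adjusted 0.114), and that of STAT3KO minus TLR9KO was 0.85 (exact permutation p = 0.0286, adjusted 0.114), both at the lowest p their sizes allow. These levels rest on about 60 to 261 reads in STAT3KO, 15 to 28 in TLR9KO and 13 to 41 in WT.

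Receptors for these ligands were scarce apart from Cxcr4. Of 8 CXC receptor genes 2 were tested, Cxcr3 and Cxcr4, and 0 passed in any comparison. Cxcr4 was 35.3 to 70.0 RPKM in STAT3KO, 41.5 to 62.4 in TLR9KO and 25.0 to 41.5 in WT. Cxcr2, the neutrophil receptor of the ELR ligands, was 0.38 to 1.14 RPKM in STAT3KO, 0.33 to 1.21 in TLR9KO and 0.46 to 1.61 in WT, so the enriched cells carried much ligand and little of its receptor's RNA. Cxcr3, which binds Cxcl9 and Cxcl10, was 1.79 to 2.87 RPKM in STAT3KO, 1.63 to 2.35 in TLR9KO and 1.65 to 2.30 in WT. Cxcl11, the other Cxcr3 ligand, was under the filter, at 0.07 to 1.63 RPKM in STAT3KO, 0.72 to 2.48 in TLR9KO and 0.16 to 0.55 in WT.

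Of 17 genes listed for the NF-kB route of the ELR ligands, 16 were tested. The list holds genes that lower chemokine RNA, such as Zfp36, beside genes that induce it, so its counts do not measure the activity of the route. In STAT3KO minus WT 7 fell, against 14.8% of all genes, and 0 rose, with a median difference of -0.32 against 0.09 over all genes. They included the cytokines Il1b (-2.63 ± 0.59) and Il6 (-1.66 ± 0.27), the co-regulator Nfkbiz (-1.20 ± 0.24) and the subunit Nfkb2 (-0.81 ± 0.19). In TLR9KO minus WT 3 fell and 0 rose, against 10.6% and 20.0% of all genes. Those that fell were Il6 (-1.02 ± 0.27), Nfkbiz (-0.69 ± 0.24) and the subunit Rela (-0.25 ± 0.08). Il1b was 51.9, 6.77, 66.0 and 43.8 RPKM in STAT3KO, 197, 203, 205 and 170 RPKM in TLR9KO and 142, 236 and 258 RPKM in WT. All 4 STAT3KO libraries lay below all 7 others in Il1b, and TLR9KO and WT overlapped. The part of these genes in the chemokine levels was not tested.

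In STAT3KO minus TLR9KO, 2 genes of the route fell, Il1b (-2.54 ± 0.55) and Zfp36 (-0.52 ± 0.16), whose product destabilises chemokine mRNA. In the same comparison 1 rose, the interleukin-17 receptor gene Il17ra (0.65 ± 0.13). Of all genes, 9.46% fell and 13.4% rose.

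Of the interferon route that induces Cxcl9 and Cxcl10, 13 of 15 genes were tested. In TLR9KO minus WT 1 rose, the interferon-gamma receptor gene Ifngr2 (0.44 ± 0.12), and 0 fell. In STAT3KO minus WT 2 rose, Ifngr1 (0.44 ± 0.16) and Ifngr2 (0.36 ± 0.12), and 2 fell, the kinases Tyk2 (-0.69 ± 0.19) and Jak1 (-0.29 ± 0.09). In STAT3KO minus TLR9KO 1 fell, the kinase Jak2 (-0.79 ± 0.20). Of all genes, 20.0% rose and 10.6% fell in TLR9KO minus WT, and 29.2% and 14.8% in STAT3KO minus WT. For STAT3KO minus TLR9KO the shares were 13.4% and 9.46%. The other 2 genes of the route, both interferons, were below the filter. Ifng was 0.18 to 1.34 RPKM in STAT3KO, 0.08 to 0.55 in TLR9KO and 0.32 to 0.78 in WT, and Ifnb1 was 0.72 to 1.10 RPKM in STAT3KO, 1.22 to 1.69 in TLR9KO and 0.04 to 0.44 in WT. The 3 groups did not overlap in Ifnb1, which was highest in TLR9KO.

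Enzymes that shed or trim chemokines numbered 12, of which 11 were tested. In STAT3KO minus WT 3 rose, the urokinase gene Plau (0.99 ± 0.12), the metalloprotease gene Mmp2 (0.52 ± 0.16) and the cathepsin gene Ctsb (0.44 ± 0.12), and 0 fell. Over all genes 29.2% rose in this comparison, a share close to that of the list, so the count is no result about it. Plau also rose in TLR9KO over WT (0.37 ± 0.12), and Plau (0.62 ± 0.11) and Ctsb (0.38 ± 0.11) were higher in STAT3KO than in TLR9KO. Adam10 was 22.5 to 31.6 RPKM in STAT3KO, 28.8 to 33.4 in TLR9KO and 25.8 to 35.3 in WT and passed in no comparison.

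Heparan sulphate chains hold chemokines, Pf4 above all, at cell surfaces. Of 8 genes for their synthesis or core proteins, Hs6st1, a sulphotransferase, rose in STAT3KO over WT (0.51 ± 0.08) and the core protein gene Sdc4 fell (-0.78 ± 0.17). In TLR9KO minus WT Ndst1 (-0.92 ± 0.28), Hs6st1 (-0.36 ± 0.08) and Ext2 (-0.24 ± 0.08), all chain-building enzymes, fell. In STAT3KO minus TLR9KO the core protein gene Sdc1 (1.14 ± 0.29) and Hs6st1 (0.86 ± 0.08) rose and Sdc4 (-0.70 ± 0.15) fell. Of all genes, 29.2% rose and 14.8% fell in STAT3KO minus WT, and 10.6% fell in TLR9KO minus WT. For STAT3KO minus TLR9KO the shares were 13.4% and 9.46%.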

How the data were processed

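The deposited files hold 1 value per gene symbol, in RPKM per the file headers, and the authors' values were used without further scaling. No unit stands in the header of TLR9KO replicate 4, whose values share the range and steps of the others. Tools listed in the submitters' processing notes are Bowtie 0.12.7, TopHat 1.3.1, CASAVA 1.7 and Partek, with the mouse build mm9. Which annotation and read total were used, and how multiply mapped reads were handled, is not given in the sources used here, so near-identical genes can share reads. Depth was estimated from the steps of microRNA genes' values, of which 73.3% to 97.1% were then whole reads within 0.15.

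Values were tested as log2(RPKM + 1), which understates changes of low genes, for the 10557 genes that averaged 1 RPKM or more. One model of 3 group means was fitted to the 11 libraries with limma 3.58.1 in R 4.3.3 (trended eBayes, two-sided, Benjamini-Hochberg over all genes tested, threshold 0.05) and tested on simulated data. Cxcl12 and Cxcl14, under the filter, had exact permutation tests. The comparisons share groups and are not independent. The genes of the family, the lists, their markers and the tests were chosen with earlier results of these data known. All 10 genes are described, and of each list up to 4 genes with the smallest p. Ifng, Ifnb1, Treml1, Mmp8, Cxcl5, Cxcl11, Cxcl13, Cxcl15, Cxcl17, Adam10, Itgam and the levels of receptors were added after their values were seen. Alternatives were the pseudocount, the filter, scaling, library weights, a GC and length correction, a replicate block and leaving out each library. Python 3.11.15 (pandas 2.3.3) was used for tables and for the motif search on both strands.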

Additional observations from a re-analysis of the deposited data

Results flagged for a closer look

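Cxcl1 was 44.99 RPKM in STAT3KO replicate 1, far above the other 3 STAT3KO libraries at 23.15 to 25.1 RPKM: on the log2(RPKM + 1) scale, the gap to the next library made up 0.882 of the range of the group, above Dixon's 95% critical value for 4 libraries. This was 1 of 20 groups of 4 libraries screened, and chance flags about 1 in 20. The library lay within the WT range of 17.8 to 54.1 RPKM.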

How the results depend on the processing

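Of the 542 values of single genes under alternatives, 502 kept their direction and side of the threshold. These values include fits without a library of the group not compared, in which the difference could not move. Cxcl1 kept both of its calls throughout. Counts of family genes called moved with the GC and length correction, to 0 in STAT3KO minus WT and 1 in TLR9KO minus WT, where all genes called became 1607 against 3229. Weighting libraries gave 3807 genes in STAT3KO minus TLR9KO, against 2409. Leaving out 1 library gave 1 to 3 family genes in TLR9KO minus WT and in STAT3KO minus TLR9KO, and 1985 to 3588 and 1577 to 2703 genes in all; the lowest counts came without WT replicate 1 and without TLR9KO replicate 4. With no filter Cxcl12 passed in TLR9KO minus WT (adjusted p = 0.0366) and Cxcl14 in STAT3KO minus TLR9KO (0.0426), while Cxcl10 and Cxcl9 did not. Pf4 passed in STAT3KO minus TLR9KO with weights (1.37, adjusted p = 0.0048).

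Signs turned only for differences that had not passed. Cxcl2 in STAT3KO minus WT became -0.0969 with median-ratio scaling and -0.414 with the GC and length correction, and Ppbp in STAT3KO minus TLR9KO 0.0283 with weights. Without 1 library, differences of STAT3KO minus WT ran from -0.646 to 0.131 for Cxcl1, -0.115 to 0.176 for Cxcl2 and -1.90 to 0.0482 for Ppbp. Those of TLR9KO minus WT ran from -0.355 to 0.201 for Cxcl2, -0.909 to 0.481 for Cxcl3, -1.66 to 0.282 for Ppbp and -0.222 to 0.0359 for Cxcl14. Those of STAT3KO minus TLR9KO ran from -0.164 to 0.392 for Cxcl2 and -0.842 to 0.258 for Ppbp. The cause was not tested.

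Replicate numbers were not taken as pairs. Deviations of 10 same-numbered pairs correlated at -0.291 to 0.492, 4 of them over 0.1, and those of other-numbered pairs at -0.608 to 0.533. So few mixed values cannot show whether any samples were paired. With the replicate block 1, 2 and 2 family genes passed, as without it, and 2662 and 1879 genes in all for TLR9KO minus WT and STAT3KO minus TLR9KO. Depth limits Cxcl12 and Cxcl14, and Cxcl1 in TLR9KO.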

Other observations

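The genes whose levels followed those of the called family members most closely over the 11 libraries were picked by the mean absolute difference of centred log2 values among the genes tested, as a description. Nearest to Cxcl1 were 1700112E06Rik (0.66), the growth factor gene Gdf3 (0.69) and the serine synthesis gene Phgdh (0.74). Gdf3 was 10.98, 4.91, 6.16 and 7.54 RPKM in STAT3KO, 1.34, 1.40, 1.24 and 0.80 RPKM in TLR9KO and 3.85, 4.61 and 5.12 RPKM in WT, so that its TLR9KO libraries too lay below all others. Nearest to Pf4 were the C-type lectin gene Clec4d (0.24), S1pr1 (0.33) and Cela1 (0.38). Clec4d was 151, 106, 103 and 130 RPKM in STAT3KO, 124, 42.9, 31.9 and 39.9 RPKM in TLR9KO and 38.9, 26.0 and 73.2 RPKM in WT, with the same high TLR9KO replicate 1 and WT replicate 3 as Pf4. Nearest to Cxcl9 were Dnase1l3 (0.64), Tlr12 (0.64) and Naaa (0.67), and to Cxcl10 9030625A04Rik (0.26) and the interferon-stimulated genes Ifit2 (0.26) and Ifit1 (0.28).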
